A study of Mus musculus with 5 samples.

Results

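Tetraspanins are small membrane proteins that cross the membrane several times and gather partner proteins, among them integrins, immunoglobulin-superfamily receptors and proteases, into microdomains. They are used as surface markers of blood cells, and they take part in adhesion, receptor signalling, fusion and vesicle traffic. The 8 genes described here are Cd9, Cd37, Cd53, Cd63, Cd81, Cd82, Cd151 and Tspan32, all expressed in blood or in many tissues. They were taken out of 21631 protein-coding genes as a named list chosen by family and by the scores of their listed sites, with Cd81 and its high-scoring site in front, so their counts and scores are a description and were not tested. For each gene, all listed PU.1 summits inside its RefSeq span or within 50 kb of either end were collected, and those within 10 kb were counted separately.

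The sites come from chromatin immunoprecipitation and sequencing (ChIP-seq) of PU.1, the ETS-family transcription factor encoded by Spi1 that binds purine-rich DNA with a GGAA core and is needed for myeloid and B cell development. The cells were AML-246, a mouse acute myeloid leukaemia on the C57BL/6 strain that is p53-/- and carries a short hairpin RNA against PU.1 linked to GFP (shPU.1), recovered from the spleen of leukaemic recipients. The PU.1 low group (2 libraries) came from untreated mice, in which the hairpin was active. The PU.1 high group (3 libraries) came from mice given doxycycline (Dox) for 2 days, which shuts the hairpin off and restores endogenous PU.1. The loss of p53 and the hairpin construct are common to both groups, and the data concern 1 leukaemia. All 5 libraries are labelled technical replicates, and no label states an age.

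The deposited data are 1 list of 11111 summits, named by its authors as high against low, each with a −log10 score from the peak caller. The score ranged from 1.32 to 43.3 with a median of 8.56 and quartiles of 5.78 and 11.9. It ranks how surely a site stood out within this list and is not a fold change. The list has no value per library, so depth is unknown, no spread between replicates can be given, and no difference between scores can be set against an error. The leukaemic cell type could not be checked against marker genes, since the list holds no expression values. A site was placed at a gene by distance alone. Sites bound alike in both groups may be missing from the list, so a gene without a listed site may still be bound.

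Sequence at the starts of these genes is shown first. Distances from a site to a gene are taken from the gene span or its nearer end, unless a start is named. RefSeq (GRCm38.p6) lists 12 promoter windows for the 8 genes, each from 250 bases before to 50 bases after a transcription start, with 4 for Cd82, 2 for Cd151 and 1 for each of the others. None of the 12 held a summit, and 2.66% of the 21045 windows of protein-coding genes held one. The windows below belong to Cd81, the gene with the highest score, and to Cd53, Cd37 and Cd82, the 3 genes whose windows hold the longest form of the searched letters. They read 5′ to 3′ along the gene, and capitals mark GAGGAA, a form of the PU.1 core, or TTCCTC, the same letters on the opposite strand.
Cd81, chr7:143052500-143052799, plus strand: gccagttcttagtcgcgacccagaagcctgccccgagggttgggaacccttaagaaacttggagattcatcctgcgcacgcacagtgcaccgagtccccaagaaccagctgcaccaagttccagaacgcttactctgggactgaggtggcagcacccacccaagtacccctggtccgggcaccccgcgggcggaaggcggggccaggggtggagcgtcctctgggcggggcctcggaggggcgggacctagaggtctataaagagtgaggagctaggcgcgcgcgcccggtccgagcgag
Cd53, chr3:106790100-106790399, minus strand: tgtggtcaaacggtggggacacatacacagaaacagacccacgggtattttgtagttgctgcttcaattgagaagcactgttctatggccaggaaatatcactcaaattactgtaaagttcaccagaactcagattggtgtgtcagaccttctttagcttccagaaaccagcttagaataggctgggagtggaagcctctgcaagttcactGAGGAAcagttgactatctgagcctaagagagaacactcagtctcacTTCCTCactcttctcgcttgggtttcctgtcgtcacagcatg
Cd37, chr7:45238790-45239089, minus strand: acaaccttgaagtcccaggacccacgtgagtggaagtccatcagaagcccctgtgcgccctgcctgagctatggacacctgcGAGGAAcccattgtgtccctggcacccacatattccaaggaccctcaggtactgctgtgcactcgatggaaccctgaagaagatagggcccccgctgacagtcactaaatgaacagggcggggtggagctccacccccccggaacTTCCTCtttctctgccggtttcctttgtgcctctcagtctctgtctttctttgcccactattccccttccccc
Cd82, chr2:93461802-93462101, minus strand: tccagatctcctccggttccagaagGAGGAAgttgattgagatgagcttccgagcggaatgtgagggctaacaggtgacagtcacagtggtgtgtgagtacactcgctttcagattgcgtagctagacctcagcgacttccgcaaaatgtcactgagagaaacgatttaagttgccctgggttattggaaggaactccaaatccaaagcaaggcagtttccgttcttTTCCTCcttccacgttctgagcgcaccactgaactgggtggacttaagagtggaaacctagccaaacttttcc

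GAGGAA was found on either strand in 5 of the 12 windows, which belong to 5 of the 8 genes (Cd37, Cd53, Cd63, Cd82 and Tspan32). It was present in 27.2% of all 21045 windows of protein-coding genes, and 30.3% of the 17274 genes in the table had it in at least 1 window. The longer GAGGAAGT, which contains GAGGAA, was found in 1 window each of Cd37, Cd53 and Cd82. It was present in 3.15% of all windows, and 3.66% of the genes in the table had it in at least 1 window. The short core GGAA, contained in both, was in all 12 windows and in 95.7% of all windows, so it separates little at this length. In Cd37 the longer match began 25 bases before the start, in Cd53 it began 6 bases after it, and in the Cd82 window it began 225 bases before the start. The Cd81 window, with 65.7% G and C, held GGAA 3 times and GAGGAA 0 times. A match is a run of letters and was not read as a binding site. The listed summits nearest to these starts lay 6.26 kb away at Cd81, 1.95 kb at Cd53, 148 kb at Cd37 and 3.88 kb at the Cd82 start shown.

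PU.1 sites were listed at most of these genes, with very unequal scores. A summit lay in the span or within 10 kb of 5 of the 8 genes (62.5%): Cd81, Cd9, Cd53, Cd82 and Cd63. Over all protein-coding genes the share was 27.8% (22.4% where sites deeper than 10 kb inside a gene were left out, of which these 8 genes had none), and it was 26.3% over the 11973 genes whose length falls between that of the shortest and the longest member (4.12 to 43.8 kb). Since the genes were chosen with these sites known, nothing is read from the gap between the shares. Those 5 genes had 6 different sites. Within 50 kb, 6 of the 8 genes had a site, against 50.3% of protein-coding genes, and the sites numbered 10. Of these 10, 2 lay within 50 kb of both Cd81 and Tspan32, which are neighbours, and so were counted once.

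**Figure D1:**
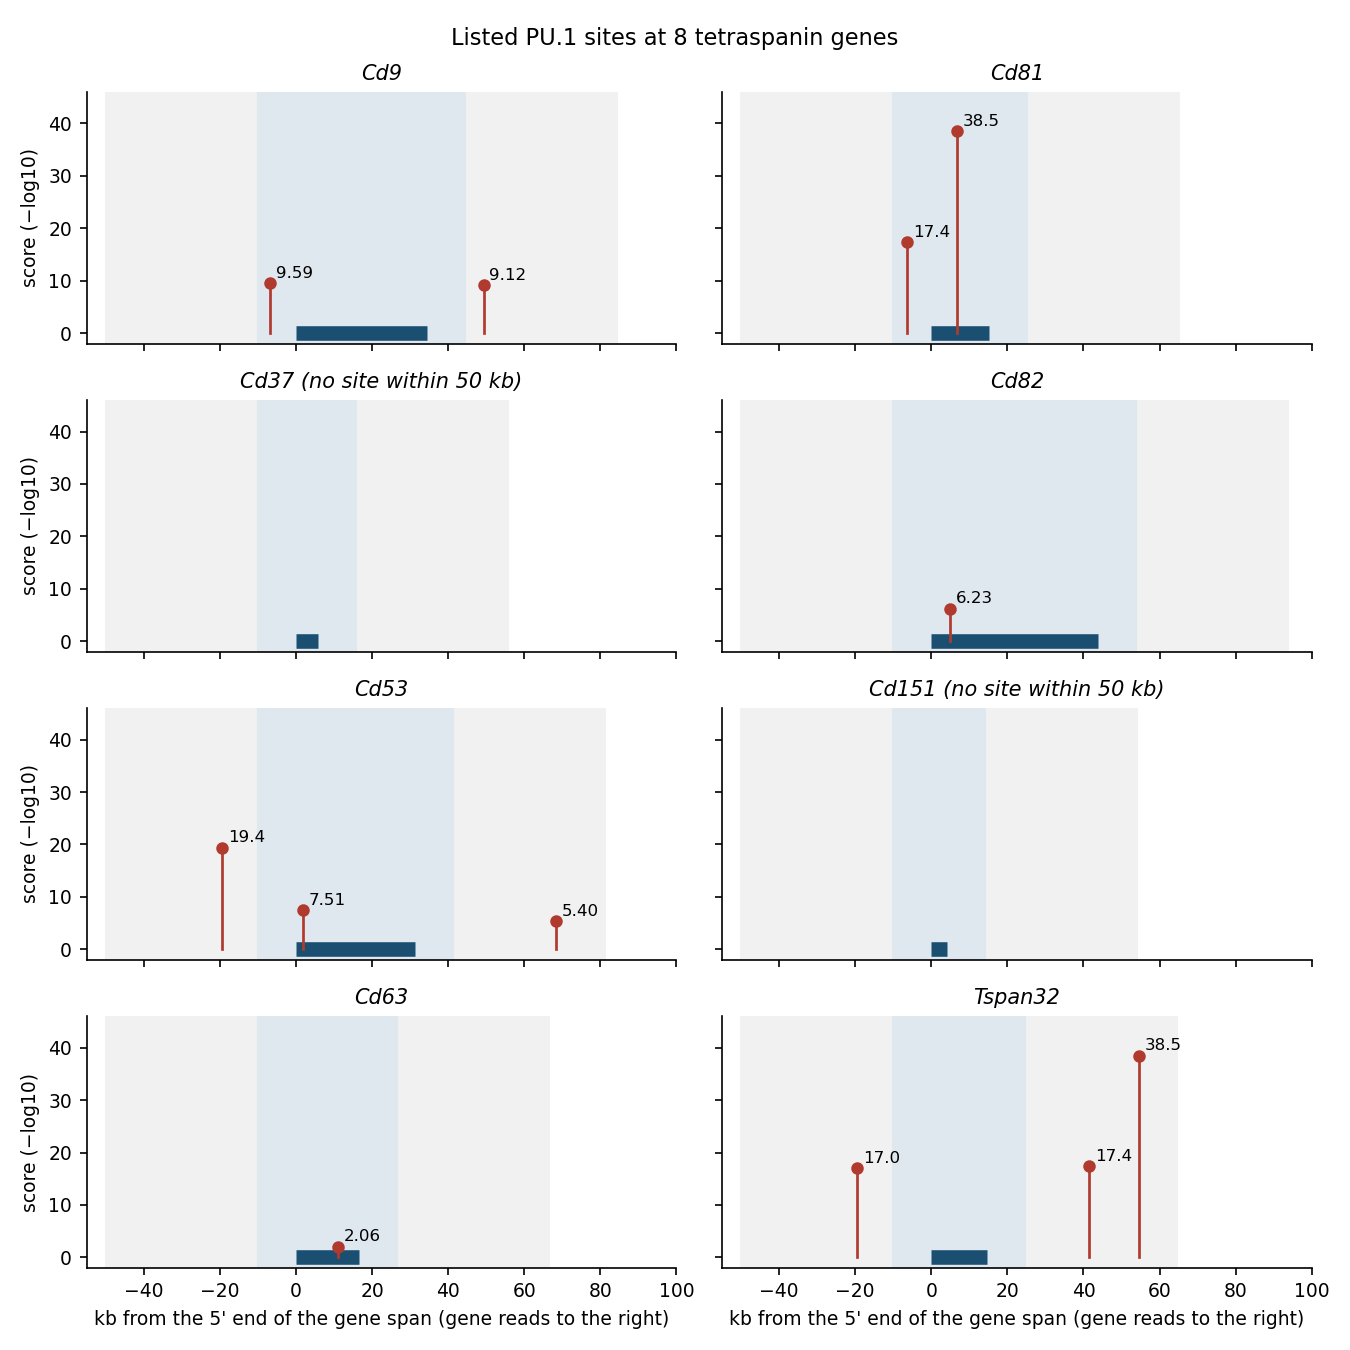
Score (−log10) of each listed site against its distance in kb from the 5′ end of the gene span, with each of the 8 genes drawn to read from left to right. The dark bar is the span, the blue band reaches 10 kb and the grey band 50 kb beyond it. Cd81 has sites of 17.4 and 38.5, Cd53 has its higher site (19.4) outside the 10 kb band, and Cd37 and Cd151 have none.

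Cd81 led the group. It encodes a widely expressed tetraspanin found on B cells and many other cells, whose human form is known as an entry receptor of hepatitis C virus. The gene (chromosome 7, 143052750 to 143067930, plus strand) had 2 sites within 10 kb. One, with a score of 38.5, had its summit at 143059610 inside the span, 6.86 kb downstream of the transcription start. The other, with a score of 17.4, had its summit at 143046492, 6.26 kb upstream of the start and inside the noncoding gene R74862. The summits were thus 13.1 kb apart, on opposite sides of the start, and they differed by 21.1 in score. Neighbouring sites of the whole list lay a median of 54.9 kb apart.

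The inner Cd81 site ranked 8 in the list of 11111. Of the 3590 protein-coding genes with a site inside their span (16.6% of all), 0 had a higher score inside the span than Cd81. When the 10 kb on each side were included, 4 protein-coding genes had a higher score, namely Tiprl (43.3), Cracdl (41.5), Krt80 (39.4) and Exoc2 (39.0), none of which had a site inside its span. These 4 genes were named after their values were seen. The outer Cd81 site ranked 783, above 92.9% of the list. Only 9.85% of protein-coding genes had 2 or more sites within 10 kb, as Cd81 did.

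The genes with the most similar highest score inside their span, by absolute difference from Cd81, were Cmip (37.6, a difference of 0.81), Dscam (36.8, a difference of 1.68) and Cask (35.1, a difference of 3.31). Cmip encodes a signalling adaptor, Dscam a neuronal adhesion molecule and Cask a scaffold kinase of synapses. Their sites lay much deeper in longer genes, 99.4 kb, 65.7 kb and 99.8 kb from the nearer gene end, whereas the Cd81 site was 6.86 kb from its nearer end. The likeness rests on 1 score per gene.

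Tspan32 (also Tssc6 or Phemx), a tetraspanin of haematopoietic cells, lies beside Cd81 on the same strand (chromosome 7, 143004907 to 143019486). The spans are 33.3 kb apart. Tspan32 had 0 sites within 10 kb. Its nearest site had a score of 17.0 at 142985390, 19.5 kb upstream of its span, and stood closer to Ascl2 (16.1 kb), a gene of a basic helix-loop-helix factor. The 2 Cd81 sites lay 27.0 kb and 40.1 kb downstream of Tspan32 and were nearer to Cd81. The 3 sites together, at 17.0, 17.4 and 38.5, make up 3 of the 4 highest scores near the 8 genes. No site was listed inside Tspan32, and none in the 2 genes next beyond Cd81, Tssc4 and Trpm5. Beyond them the next site upward had a score of 6.57 inside the Kcnq1 span, 80.3 kb from the Cd81 start. The next site downward lay 142 kb from the Cd81 start with a score of 4.99.

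**Figure D2:**
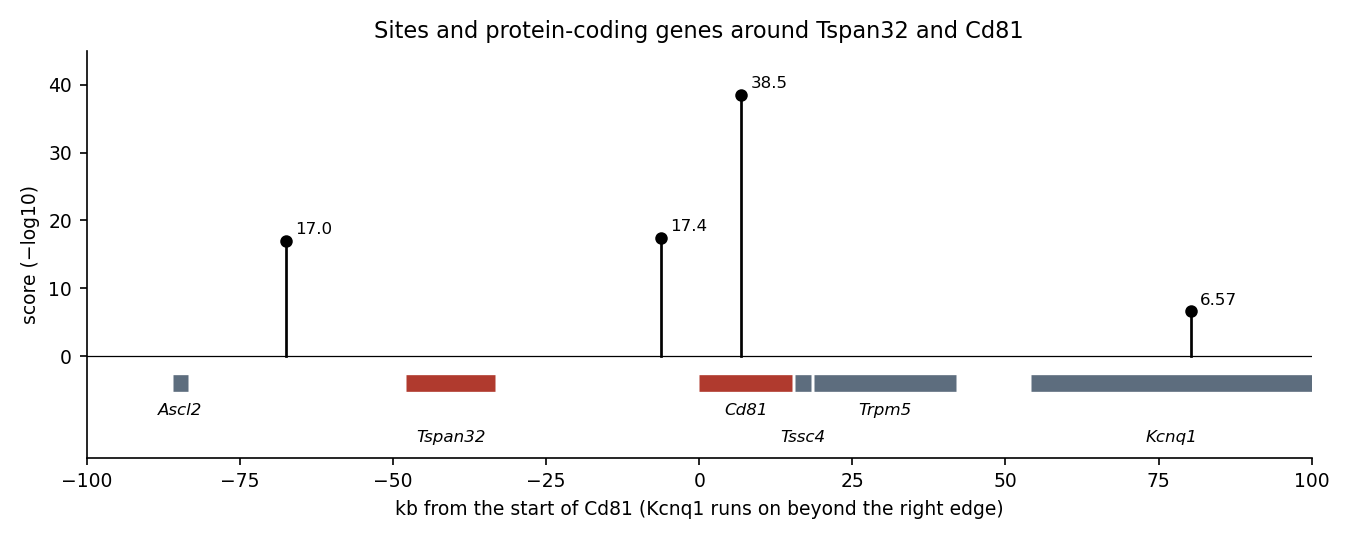
Score (−log10) of the 4 listed sites within 100 kb of the Cd81 start, plotted against distance in kb, above the spans of the 6 protein-coding genes of that stretch. Cd81 and Tspan32 are red. The 38.5 site falls inside Cd81, and the 17.0 and 17.4 sites stand on either side of Tspan32.

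Cd53 encodes a tetraspanin confined to leukocytes. The gene (chromosome 3, 106758861 to 106790149, minus strand) had 3 sites within 50 kb and 1 within 10 kb. The site within 10 kb had a score of 7.51 at 106788201, inside the span and 1.95 kb downstream of the start, and thus below the median of the list. A site of higher score stood farther out, with a score of 19.4 at 106809538, 19.4 kb upstream of the start, above 95.8% of the list. Its nearest protein-coding gene was the olfactory receptor gene Olfr266, 12.1 kb away. The lowest of the 3, with a score of 5.40 at 106721891, lay 37.0 kb downstream of Cd53, inside the span of Lrif1, a nuclear receptor-interacting factor gene. At Cd53 the order of scores thus did not follow the distance, and the 10 kb limit leaves out its highest site.

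Cd37, which encodes a tetraspanin largely limited to leukocytes and abundant on B cells, had no listed site within 50 kb (chromosome 7, 45233632 to 45239340, minus strand). The nearest summit, with a score of 6.11, was 143 kb from the span.

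Cd9 encodes a tetraspanin of platelets and many other cells, known for its part in membrane fusion. The gene (chromosome 6, 125460266 to 125494760, minus strand) had 2 sites, 1 on each side and 56.0 kb apart, and none inside. The upstream site had a score of 9.59 at 125501455, 6.70 kb before the start, within the noncoding gene Gm26728. The downstream site had a score of 9.12 at 125445455, 14.8 kb past the end of the gene, within the noncoding gene Gm32673. The 2 scores were close to each other and a little above the median of the list, and Cd9 was the nearest protein-coding gene to both.

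Cd82 (Kai1), first described as a suppressor of metastasis, had 1 site (chromosome 2, 93419102 to 93462950, minus strand). Its score was 6.23 at 93457975, inside the span and 3.88 kb downstream of the nearest of its 4 listed starts, where the noncoding gene Gm10804 also lies. The next listed site was 265 kb away. Cd63, the tetraspanin of late endosomes, lysosomes, granules and exosomes, also had 1 site (chromosome 10, 128896231 to 128912822, plus strand). Its score of 2.06 at 128907414 exceeded only 1.67% of the list. The summit was inside the RefSeq span, which begins well before the 1 start in the promoter table, and lay 1.93 kb upstream of that start. The Cd82 and Cd63 sites were both isolated, the Cd63 site lying 211 kb from the next one.

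Cd151, a partner of laminin-binding integrins, had no listed site within 50 kb (chromosome 7, 141467362 to 141471481, plus strand). The nearest, with a score of 14.8, lay 69.4 kb away. It is also the nearest site to Tspan4, another tetraspanin gene whose span begins 3.75 kb past Cd151. That summit lay 47.5 kb downstream of Tspan4, at 141540902, and 0.997 kb from the nearer boundary of the span of Chid1, a chitinase-domain gene.

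**Figure D3:**
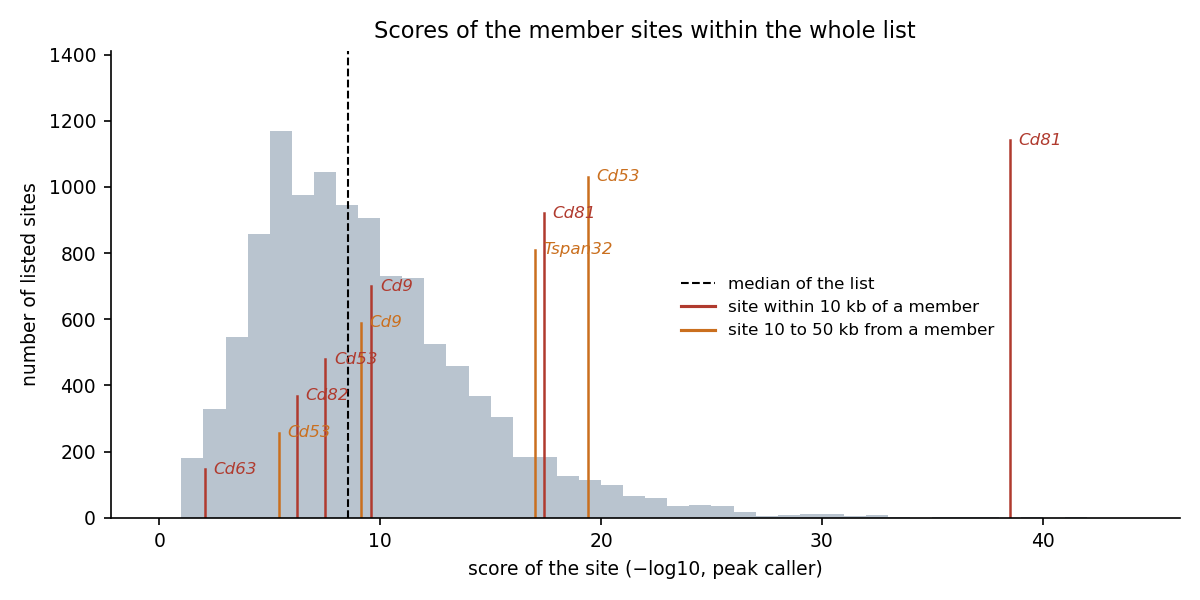
Number of listed sites by score (−log10, bins of 1 unit) with the 10 different sites near the 8 genes as vertical lines, whose height has no meaning. Red lines are sites within 10 kb, orange lines sites 10 to 50 kb away, and the dashed line is the median of the list (8.56). The 6 red lines run from 2.06 (Cd63) to 38.5 (Cd81), with 3 on each side of the median.

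Set in order, the highest scores within 10 kb were 38.5 for Cd81, 9.59 for Cd9, 7.51 for Cd53, 6.23 for Cd82 and 2.06 for Cd63. Cd81 was the only one of the 8 with a score of 10 or more there, against 12.7% of all protein-coding genes. Of protein-coding genes with any site within 10 kb, 45.5% reached that score. The median of the 5 highest scores was 7.51, and that of the 6019 protein-coding genes with a site was 9.57. Cd81 exceeded 99.9% of those genes, Cd9 50.5%, Cd53 32.9%, Cd82 23.0% and Cd63 1.36%. Apart from Cd81, the scores within 10 kb of these genes were therefore of ordinary or low size for this list. Whether any neighbours in the order differ cannot be told without an error. Farther than 10 kb from every member, sites of 19.4 near Cd53 and 17.0 near Tspan32 exceeded 95.8% and 92.4% of the list. The other sites there, of 9.12 near Cd9 and 5.40 near Cd53, were lower.

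In position the 10 sites were mixed. Inside member spans lay 4 sites, at Cd81, Cd53, Cd82 and Cd63, and 1 more lay inside Lrif1. The remaining 5 were outside protein-coding genes. Over the whole list, 52.0% of sites were inside a protein-coding gene. For 3 of the 10, the nearest gene was not a member but Olfr266, Lrif1 or Ascl2. Each of the 6 sites within 10 kb of a member had that member as its nearest protein-coding gene. A gene that holds a site was taken before any nearer gene end, so for the 4 sites inside member spans this follows largely from the rule. Only the Cd9 site and the outer Cd81 site were assigned by distance to a gene end. These 6 lay between 1.93 kb and 6.86 kb from the nearest listed start, 3 upstream of it (Cd9, Cd63 and the outer Cd81 site) and 3 downstream (Cd53, Cd82 and the inner Cd81 site). The sites just inside the 10 kb limit were thus those of Cd9 at 6.70 kb (9.59) and Cd81 at 6.26 kb (17.4), and the site just outside it was that of Cd9 at 14.8 kb (9.12). The site just inside the 50 kb limit was the one at 40.1 kb from Tspan32 (38.5), and the first beyond it lay 65.2 kb from Cd81 (6.57).

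Outside these 8 genes, the family's highest sites within 10 kb of a gene were at Tspan13, Tspan9 and Tspan14. Of 23 further tetraspanin genes, 5 (21.7%) had a site within 10 kb, against the 27.8% of all protein-coding genes, and 12 (52.2%) had one within 50 kb, against 50.3%. That list, too, was chosen with earlier results of these data known, and its shares were not tested. Between 10 and 50 kb, higher scores than at Tspan9 and Tspan14 were listed near Tspan4 (14.8), Upk1a (14.7), Rom1 (13.7) and Tspan2, which were named after their values were seen. The site 38.5 kb from Rom1 had 1810009A15Rik as its nearest protein-coding gene. Tspan13 had sites of 14.4 and 8.78 inside the gene (6.69 kb and 13.0 kb downstream of its start). Tspan9 followed with 1 site of 9.57 inside its long span. Tspan14, whose protein guides the protease ADAM10 to the cell surface, had 3 sites of 5.60 to 8.72, the highest of which lay 0.252 kb upstream of a listed start. Upk1b, a uroplakin gene of the bladder lining, had 1 site of 8.18 and Tspan18 1 of 5.23. The Tspan18 site lay 8.97 kb outside its span and was nearer to Trp53i11 (5.44 kb). Among all 31 tetraspanin genes, 10 had a site within 10 kb and 2, Cd81 and Tspan13, reached a score of 10.

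**Figure D4:**
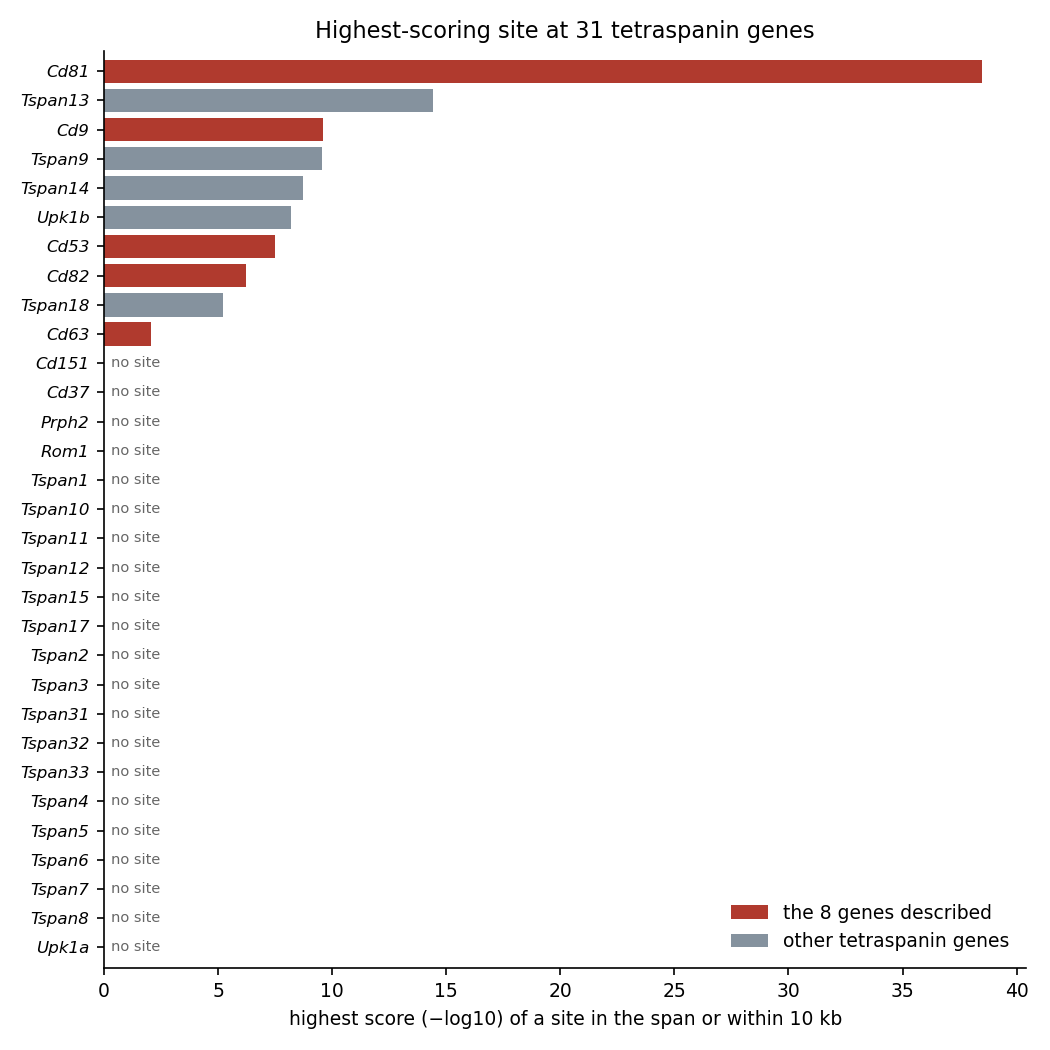
Highest score (−log10) of a site in the span or within 10 kb for each of 31 tetraspanin genes, with the 8 genes described in red and the other 23 in grey. Cd81 stands at 38.5 and the next gene, Tspan13, at 14.4, and 21 genes have no site.

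Genes of proteins that bind tetraspanins or travel with them were counted too. Of 16 such genes, 8 (50%) had a site within 10 kb, against 27.8% of all protein-coding genes, and 11 (68.8%) had one within 50 kb, against 50.3%. Within 10 kb of a gene end, 6 of the 16 had a site, against 22.4% of protein-coding genes. The partner genes had a median length of 37.2 kb, against 17.3 kb for protein-coding genes, and the shares were not matched for length. The partner list was also chosen with earlier results of these data known. These shares were not tested, and nothing is read from the gap between them. Adam10, the protease steered by Tspan14 and its relatives, had the highest score within 10 kb, a site of 11.1 inside the gene and 52.3 kb downstream of its start. Itga4, an integrin chain of leukocytes, had a site of 9.75 that lay 1.98 kb upstream of its start and a second one of 13.9 at 27.2 kb upstream. Hbegf, which encodes a growth factor precursor that CD9 binds, had a site of 8.85 within its span, where the nearer end was 3.36 kb away. Of the chains of the laminin-binding integrins that pair with CD151, Itgb1 and Itga3 had 0 sites within 50 kb, with the site nearest to Itga3 at 51.0 kb, whereas Itga6 had 1 of score 4.0 at 29.3 kb. Cr2, a complement receptor gene of B cells, also had 0, as did Itgal and Timp1, so that 5 partner genes had none within 50 kb. Itgb2, another integrin chain gene, had 2 sites within 10 kb, of 8.22 and 4.24.

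**Figure D5:**
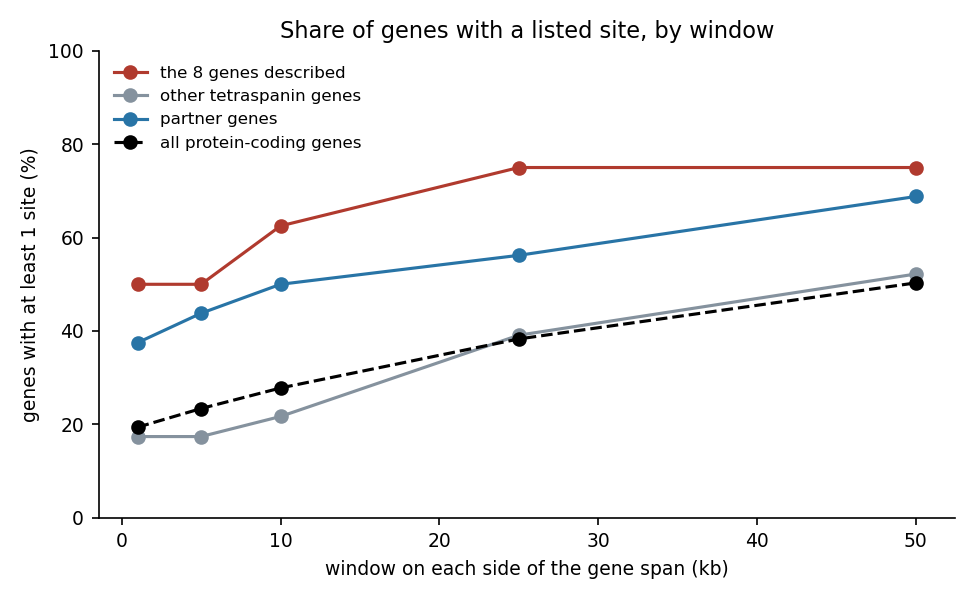
Share of genes (%) with at least 1 listed site in the span or within a window of 1, 5, 10, 25 or 50 kb on each side. Red is the 8 genes (4 of 8 at 1 kb, 6 of 8 at 50 kb), grey the 23 other tetraspanin genes, blue the 16 partner genes and the dashed black line all 21631 protein-coding genes (19.4% at 1 kb, 50.3% at 50 kb). The red points were chosen with the sites known, and the grey and blue lists with earlier results of these data known. The height of any of them above or below the dashed line is therefore not a test.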

How the data were processed

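PU.1 ChIP-seq was made from 5 libraries (2 PU.1 low, 3 PU.1 high) with the antibody T-21, per the labels' protocols. The authors deposited 1 list of summits in which each site has a score on a −log10 scale. It is the −log10 of either a p-value or a q-value, and no label or header says which. CASAVA 1.8.2, MACS2 and the build mm10 are named in the submitters' processing notes. The aligner, filters, MACS2 settings and handling of the technical replicates were not given in the sources used here. This list was called as high against low, per the peak names in the file, so sites bound alike in both groups may be missing from it.

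From these, the 11106 summits on chromosomes 1 to 19 and X were set against the spans of 21631 protein-coding genes (RefSeq, GRCm38.p6, the same coordinates as mm10; positions are 1-based). Strand and transcription starts came from the RefSeq promoter table, which matched all 8 members. Exons and introns were not assigned. Python 3.11.15 with pandas 2.3.3 was used, and the window counts were checked on simulated sites. The members and lists were chosen with earlier results of these data known. The text names the 8 genes, the genes at or nearest to their sites, the 3 highest-scoring genes of the other tetraspanin and partner lists, and the 3 genes most like Cd81 in score. Of the planned partner list, 1 gene is not reported here and was left out of the counts. Further genes of both lists, the genes nearest to their sites, and Tspan4, Chid1, Tssc4 and Trpm5, were named after their values were seen. Alternatives were other windows and score minimums, nearest gene only, merged summits and distances from starts or ends.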

Additional observations from a re-analysis of the deposited data

How the results depend on the processing

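The number of the 8 genes with a site (5 at 10 kb) stayed between 4 and 6 with windows of 1, 5, 25 and 50 kb, a minimum score of 5, nearest gene only, merged summits and distances from starts or ends. With a minimum score of 10 it was 1, Cd81. The number of sites at these genes (6) was 10 with a 50 kb window and 2 with a minimum score of 10, both at Cd81, and between 4 and 9 under the other alternatives. The count of other tetraspanin genes (5) was 12 with a 50 kb window, 1 with a minimum score of 10 and 3 within 10 kb of a gene end. The count of partner genes (8) was 1 with a minimum score of 10. These alternatives change which sites or distances are counted, by construction. Distances from starts and from ends were added after the data were seen. The planned search for GAGGAA around summits was not run, since it needs sequence that was not used here. No paired analysis was possible because the list holds no value per replicate, which also means that replicates could not be left out in turn. Depth is unknown and its limits cannot be given.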

Other observations

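Among the other tetraspanin genes, 7 had no site within 10 kb but at least 1 within 50 kb. Upk1a, a uroplakin gene, had a site of 14.7 that lay 10.5 kb downstream of it, just past the 10 kb limit, and 2.88 kb from Zbtb32. Tspan33, the gene of another tetraspanin that binds ADAM10, had one of 2.26 at 11.2 kb, 5.78 kb from Smo. The 1 site of Tspan2 lay 19.2 kb upstream, with Tspan2 itself the nearest protein-coding gene. Tspan3 had 3 sites of 3.71 to 8.84, all nearer to Pstpip1 or Peak1.

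Among the partner genes, Clec7a, which encodes the fungal receptor dectin-1 that CD37 associates with, had a site of 6.61 located 0.0800 kb upstream of its start. It had 4 more within 50 kb, with scores from 11.2 to 21.5, all nearer to Clec1a or Olr1 in the same lectin gene cluster. Ifitm1 had 6 sites within 50 kb with scores from 4.51 to 12.5, of which 1 (4.83) was nearest to Ifitm1. These genes were named after their values were seen.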
